A study of Rattus norvegicus with 15 samples.

Results

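The signals of 10 genes of heart muscle were followed through the rat ductus arteriosus and aorta around birth. Of these 10 genes, 9 encode proteins of the sarcomere (Myl2, Myl3, Myl7, Myh6, Myh7, Tnnt2, Tnni1, Tnni3 and Actc1), and the tenth is Nppa, the precursor of atrial natriuretic peptide. They are 10 of 10969 named genes on the arrays and were read from 24 of 26202 probe sets, all those whose platform annotation gives one of these symbols and no other. The genes were picked with their signals on these arrays already known, above all those of fetal ductus, fetal aorta and newborn ductus. Their values are therefore a description, with no test.

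RNA came from 5 states of vessel. Each was read on 1 array of each of 3 Affymetrix chips for the rat, named A, B and C, so 15 arrays were used. The newborn ductus and the newborn aorta (arch and thoracic part) were taken 3 h after vaginal delivery and dissected in medium bubbled with 12.5% oxygen. The fetal ductus and the fetal aorta were taken by caesarean section on day 19 of gestation from dams breathing normally, and dissected at 2.5% oxygen. The oxygen ductus came from fetuses of day 19 after their dams were given 100% oxygen for 3 h before the caesarean, also dissected at 2.5% oxygen. Age, mode of delivery and oxygen of the medium differ together between newborn and fetal samples and cannot be told apart. The strain and the number of animals behind an array are not given in the labels, which state that the vessels were cleared of adhering tissue. With 1 array per state and chip type there is no replicate, and the number of arrays limits the precision.

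Values are linear signal intensities. For each chip a floor was set at the median over its 5 arrays, which was 149.8 for A, 242 for B and 243 for C. Lower signals were raised to it before a ratio was taken, so a ratio against the floor is a lower bound ("at least"). A gene was measured in a pair of states where at least 1 of the 2 arrays was above the floor, and was read at its brightest probe set. On each array 46.9% to 51.8% of probe sets exceeded the floor. The oxygen ductus arrays had the lowest median signal on each chip, on chip A 83.6% of the lowest of the other 4. Of 15 smooth muscle genes on the chips, 14 or 15 were above the floor in each state, and on chip A Acta2, smooth muscle alpha-actin, had 30805 in the newborn ductus, 15987 in the oxygen ductus, 20532 in the fetal ductus, 23050 in the newborn aorta and 16318 in the fetal aorta.

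The sarcomere is the contractile unit of striated muscle, in which thick filaments of myosin pull on thin filaments of actin. Each myosin heavy chain carries an essential and a regulatory light chain, and calcium releases the block that troponin places on the thin filament. Heart muscle uses its own forms of these proteins, some of them specific to atrium or ventricle or to the fetal heart, and several also appear in slow or developing skeletal muscle. Smooth muscle, the main muscle of the vessel wall, contracts with other myosin, actin and light chain genes and without troponin. In the rat, Nppa is made mainly by atrial muscle, and by ventricular muscle before birth, and its product relaxes vessels and promotes loss of salt and water.

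Promoter windows were looked up for the members, since most of them had like ratios across the states. RefSeq sequences on build GRCr8, 250 bases before to 50 after the annotated start of the gene, were found for 9 of the 10, with Myl2 unmatched. The windows shown are those of Actc1 and Myl3, which hold a CArG box, the site bound by serum response factor in heart and smooth muscle genes, and Nppa, whose signals ran apart from the others. Capitals mark matches to the CArG box, the MEF2 site, the MCAT element (letters CATTCC) and a GATA site, each on either strand, and to the TATA box (letters TATAAA) on the gene's strand. A GATA site was AGATAA, or with another last letter AGATAG, or with another first letter TGATAA, or with both changes TGATAG, read on both strands.
Actc1, chr3:121271778-121272077, minus strand: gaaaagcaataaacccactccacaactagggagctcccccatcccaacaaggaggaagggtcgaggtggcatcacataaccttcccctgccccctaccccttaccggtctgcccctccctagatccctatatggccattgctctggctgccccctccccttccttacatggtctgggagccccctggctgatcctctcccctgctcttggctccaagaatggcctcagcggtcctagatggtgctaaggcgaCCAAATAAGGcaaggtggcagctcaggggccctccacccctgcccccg
Myl3, chr8:119616844-119617143, plus strand: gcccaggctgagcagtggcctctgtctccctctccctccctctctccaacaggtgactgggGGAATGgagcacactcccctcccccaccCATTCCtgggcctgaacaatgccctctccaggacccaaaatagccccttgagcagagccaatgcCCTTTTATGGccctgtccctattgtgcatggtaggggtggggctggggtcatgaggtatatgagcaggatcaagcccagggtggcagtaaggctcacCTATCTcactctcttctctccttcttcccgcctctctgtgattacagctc
Nppa, chr5:163711934-163712233, plus strand: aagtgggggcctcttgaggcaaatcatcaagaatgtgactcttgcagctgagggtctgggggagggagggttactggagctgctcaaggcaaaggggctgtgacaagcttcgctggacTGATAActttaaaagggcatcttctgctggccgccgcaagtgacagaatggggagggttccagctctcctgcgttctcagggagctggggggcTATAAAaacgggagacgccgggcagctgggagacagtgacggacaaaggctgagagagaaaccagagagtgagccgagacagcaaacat
A CArG box lay in 2 of the 9 windows and in 1.64% of all 33469 windows of this length. The MCAT element lay in 3 (Myh6, Myl3 and Tnnt2), against 14.2% of all, and a GATA site in 4 (Myl3, Nppa, Tnni3 and Tnnt2), against 30.3% of all. The TATA box lay in the Nppa window alone of the 9, and in 8.80% of all. No MEF2 site was matched in the 9 windows, against 3.29% of all. The motifs do not overlap in these windows, and a match is a string of letters, not a bound site. Starts are as annotated and may lie away from the promoter in use. The Myh7 and Myl7 windows read into coding sequence, so their lack of these matches says nothing about the promoters of these genes.

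The regulatory light chain of the ventricle and slow muscle, Myl2, had signals of 248 in the newborn ductus, 852 in the oxygen ductus, 1406 in the fetal ductus, 423 in the newborn aorta and 203 in the fetal aorta. Fetal and oxygen ductus were high, the newborn ductus and both aortas low. The essential light chain of the same muscles, Myl3, was above the floor in 2 states only, with 392 in the oxygen ductus and 504 in the fetal ductus, against 23.8 in the newborn ductus, 13.8 in the newborn aorta and 104 in the fetal aorta. Myl7, the atrial regulatory light chain, had 1099 in the newborn ductus, 3467 in the oxygen ductus, 4127 in the fetal ductus, 2709 in the newborn aorta and 2132 in the fetal aorta. The newborn ductus was lowest for Myl7, under both aortas.

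Both heavy chains of cardiac myosin followed the same order of states. Myh6, the fast alpha chain, had 1085 in the newborn ductus, 2215 in the oxygen ductus, 3349 in the fetal ductus, 1754 in the newborn aorta and 1164 in the fetal aorta (chip C). Myh7, the slow beta chain, had 451, 1205 and 1561 in the newborn, oxygen and fetal ductus, and 663 and 525 in the newborn and fetal aorta (chip A). Newborn ductus and fetal aorta were within 1.5-fold of each other at the low end for both genes. The genes are neighbours in the rat genome, and their brightest probe sets are of a type (suffix f) that can bind transcripts of similar sequence, so the 2 readings may share transcripts.

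Troponin anchors and regulates the thin filament. Tnnt2, cardiac troponin T, which ties the complex to tropomyosin, had 554 in the newborn ductus, 2402 in the oxygen ductus, 2343 in the fetal ductus, 1161 in the newborn aorta and 797 in the fetal aorta. Tnni1, the slow skeletal troponin I that is also the form of the fetal heart, had 169, 513 and 624 in the newborn, oxygen and fetal ductus, and 214 and 394 in the newborn and fetal aorta. Among the 9 sarcomere members it was the one above the floor in both aortas whose newborn aorta lay under the fetal aorta. Tnni3, the troponin I of the mature heart, had 508, 794 and 792 in the newborn, oxygen and fetal ductus, and 1017 and 466 in the newborn and fetal aorta. It was the one member highest in the newborn aorta.

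Actc1, cardiac alpha-actin of the thin filament, had 3190 in the newborn ductus, 7077 in the oxygen ductus, 9620 in the fetal ductus, 5491 in the newborn aorta and 4285 in the fetal aorta. Nppa had 435 in the newborn ductus, 1293 in the oxygen ductus and 630 in the fetal ductus, against 15.5 in the newborn aorta and 9.70 in the fetal aorta. Nppa was thus above the floor in every ductus state and under it in both aortas. Of the 10 members, 7 were highest in the fetal ductus, 2 in the oxygen ductus (Tnnt2 and Nppa) and 1 in the newborn aorta (Tnni3). Fetal and oxygen ductus, the 2 highest states of 9 members, were less than 2-fold apart at the brightest probe set for all of these except Nppa.

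**Figure D1:**
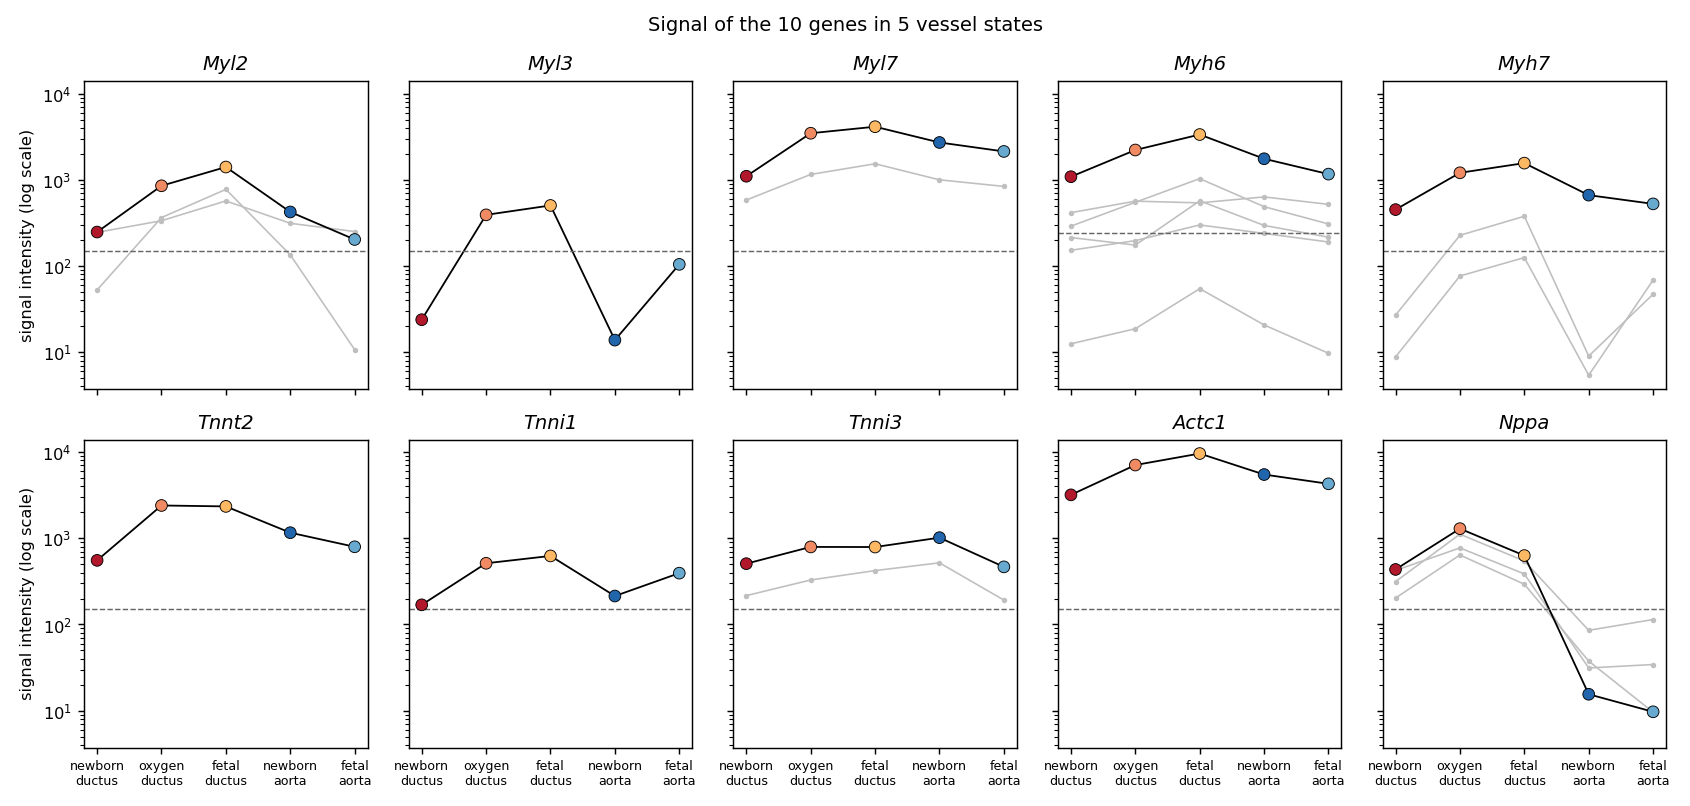
Signal intensity (log axis) of each of the 10 genes in the newborn, oxygen and fetal ductus and the newborn and fetal aorta. Coloured points are the brightest probe set, grey lines the gene's other probe sets, and the dashed line the floor of the brightest probe set's chip; 1 array per point. Most panels peak in the fetal or oxygen ductus, while Nppa stays above the floor in the 3 ductus states and drops under it in both aortas.

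Of the 24 probe sets, 20 are on chip A and 2 each on chips B and C, and 22 were above the floor on at least 1 array. The 2 that never were belong to Myh6 and Myh7. A single probe set reads Myl3, Tnnt2, Tnni1 and Actc1, while the other 6 members have more than 1. Of the probe sets that are not a gene's brightest, 12 of 12 measured went the same way as the brightest between fetal ductus and fetal aorta, and 11 of 12 between newborn and fetal ductus. The same held for 10 of 10 between the newborn vessels and 7 of 7 between the aortas. It held for 10 of 12 between oxygen and fetal ductus and 11 of 12 between newborn and oxygen ductus. The sizes differed. The Myh6 probe set of chip B had 415, 565 and 540 in the newborn, oxygen and fetal ductus, and 633 and 519 in the newborn and fetal aorta. Its fetal ductus over fetal aorta ratio was 1.04-fold, where the chip C reading gave 2.88-fold. It is the one Myh6 probe set above the floor without the suffix f. The larger Myh6 ratios of this pair thus all came from probe sets that can bind transcripts of similar sequence. A further 5 probe sets, left out because they carry several symbols, name a member. Of these, 3 that name Acta2 with Actc1 gave log2 ratios of -1.13, -1.60 and -1.90 for newborn over fetal ductus, on the side of Actc1 (-1.59), whereas the Acta2 reading itself was 0.59. The fourth was under the floor in all 5 states, and the fifth, of Myh6 with Myh7, gave -1.80 as a bound.

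The fetal vessels were compared for what sets the ductus apart before birth. All 10 members had higher signals in the ductus, 7 of them at least 2-fold and 0 at least 2-fold lower. Among all 7610 genes measured in this pair, 0.959% exceeded this fold upwards and 0.959% downwards. The members' median log2 ratio was 1.54, that of all genes -0.02. In bulk tissue, fewer cells of a type and less RNA per cell cannot be told apart, here and in the comparisons that follow. Myl2 had the highest ratio of all measured genes (6.93-fold), while Nppa (at least 4.21-fold) and Myl3 (3.36-fold or more) gave bounds that depend on the floor. Myh7 was 2.97-fold, Tnnt2 2.94-fold, Myh6 2.88-fold and Actc1 2.25-fold higher. Under 2-fold were Myl7 (1.94-fold), Tnni3 (1.70-fold) and Tnni1 (1.58-fold), and Tnni1 alone lay inside the range that held the central 95% of genes (log2 -0.76 to 0.71). With all its probe sets averaged Myl2 was at log2 2.11, and its other probe set above the floor in both vessels gave 2.27-fold. The same averaging brought Myh6 (log2 0.90) and Myh7 (0.97) under 2-fold and Nppa to 1.57. With double the floor Myl3 was at 0.75, Nppa at 1.07 and Myl2 at 2.23.

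**Figure D2:**
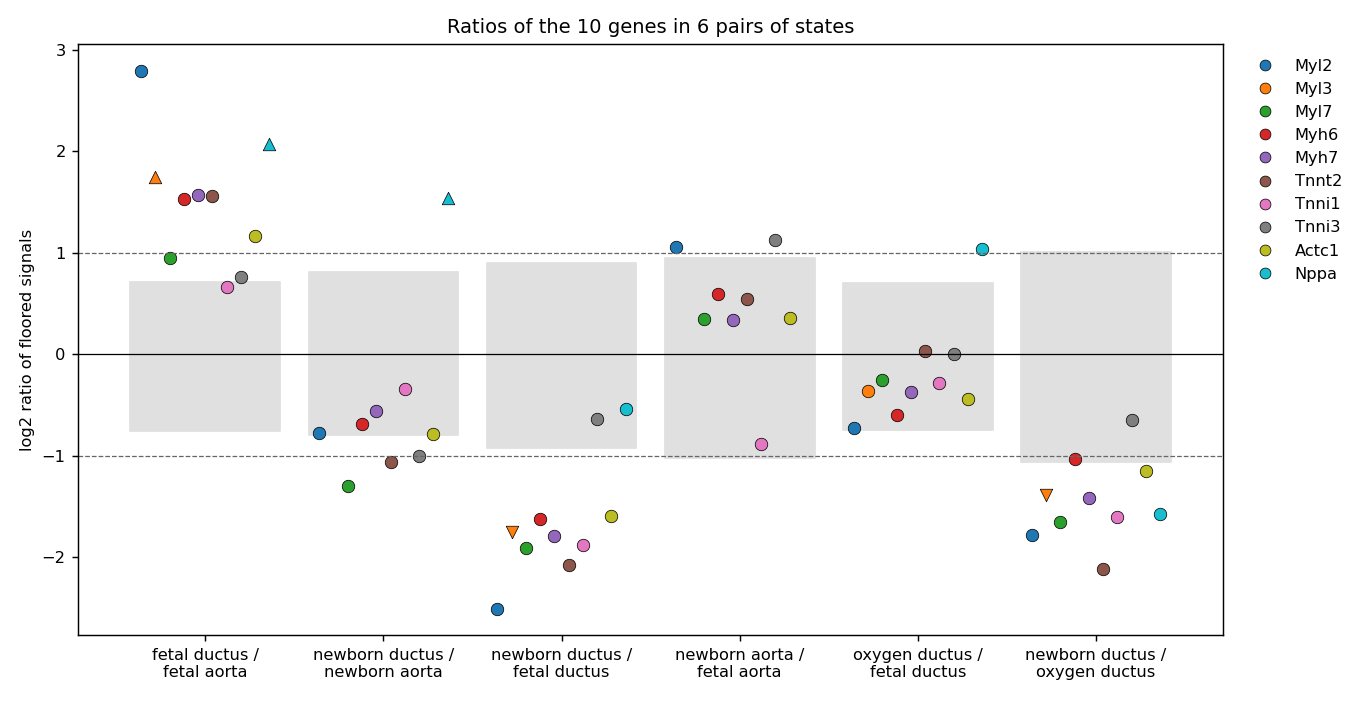
Log2 ratio of floored signals of the 10 genes in 6 pairs of states, the state before the slash over the one after it. Circles are ratios with both arrays above the floor and triangles bounds, grey boxes hold the central 95% of all measured genes, and dashed lines mark 2-fold. All points lie above 0 for fetal ductus over fetal aorta and below 0 for newborn over fetal ductus; Nppa is the one member over 2-fold for oxygen over fetal ductus.

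At 3 h after birth the order of the vessels was the other way round for the sarcomere genes among the 10. In the newborn ductus all 8 measured sarcomere members had lower signals than in the newborn aorta, with log2 ratios of -0.34 to -1.30 and a median of -0.78. Myl7 (2.46-fold), Tnnt2 (2.09-fold) and Tnni3 (2.00-fold) were at least 2-fold lower, and Tnni3 was at -0.99 after quantile normalization, just short of it. The other measured sarcomere members, Myl2, Actc1, Myh6, Myh7 and Tnni1, lay inside the central range of genes (log2 -0.80 to 0.81). Nppa was at least 2.903-fold higher, the one member at least 2-fold higher. That makes 3 of 9 measured members lower and 1 higher, while 1.18% of all genes were at least 2-fold lower and 1.25% higher. Myl3 was under the floor in both vessels and gave no ratio. Nppa had 4 probe sets, all higher in the newborn ductus, by at least 2.903-fold, 2.83-fold, 2.10-fold and 1.35-fold, and with double the floor its log2 ratio was 0.54.

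In the ductus itself, newborn against fetal, all 10 members had lower signals and 8 were at least 2-fold lower, where 1.8% of all genes were so low and 1.72% at least 2-fold higher. The members' median log2 ratio was -1.77, that of all genes -0.05. Myl2 had a log2 ratio of -2.51 (5.68-fold lower) and Tnnt2 one of -2.08 (4.23-fold lower). Myl7 was 3.75-fold, Tnni1 3.69-fold, Myh7 3.46-fold, Myh6 3.09-fold and Actc1 3.02-fold lower, and Myl3 at least 3.36-fold (log2 -0.75 with double the floor). With all probe sets averaged Myh6 and Myh7 were both at log2 -1.04 and Myl2 at -2.03, and with double the floor Tnni1 was at -1.06. The Myh6 probe set of chip B, the one above the floor without the suffix f, was 1.30-fold lower. Tnni3 (1.56-fold) and Nppa (1.45-fold) were lower by less, inside the central range of genes (log2 -0.92 to 0.90). One of the 4 Nppa probe sets was slightly higher (1.10-fold), so for Nppa the direction differed between probe sets.

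In the aorta, newborn against fetal, 8 members could be read, since Myl3 and Nppa were under the floor in both states. Of these 8, 7 were higher and 1 lower in the newborn, with a median log2 ratio of 0.45 against -0.05 for all genes. Tnni3 (2.18-fold) and Myl2 (2.09-fold) were at least 2-fold higher, where 2.12% of all genes were, and 0 members were at least 2-fold lower, against 2.71% of genes. Myl2 rested on its brightest probe set, at log2 0.46 with all its probe sets averaged and 0.50 with double the floor. Myh6 was 1.51-fold, Tnnt2 1.46-fold, Actc1 1.28-fold, Myl7 1.27-fold and Myh7 1.26-fold higher, all inside the central range of genes (log2 -1.02 to 0.95). Tnni1 was 1.84-fold lower. Fat genes were higher in the same sample: 6 of 9 measured were at least 2-fold above the fetal aorta, their median log2 ratio was 2.15, and Fabp4, the fatty acid binding protein of fat cells, had 3489 in the newborn and 123 in the fetal aorta. The summed signal of the 11 fat genes was 12762 in the newborn aorta and 4253 to 5703 in the other 4 states, and its part in the ratios of the heart genes was not tested.

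Of the 8 members measured in both vessels, 7 thus had lower signals after birth in the ductus and higher ones in the aorta, as did 17.9% of all 7278 genes so measured. The birth log2 ratio in the ductus minus that in the aorta was negative for all 10 members, with a median of -2.04. It was -3.57 for Myl2, -2.62 for Tnnt2, -2.25 for Myl7, -2.22 for Myh6, -2.13 for Myh7, -1.95 for Actc1, -1.77 for Tnni3 and -1.003 for Tnni1. For Myl3 (-1.75) and Nppa (-0.54) both aorta signals stood at the floor, so these are the changes of the ductus alone. The 4 arrays also give the vessel comparisons, so these differences restate the ratios above and add no independent reading.

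**Figure D3:**
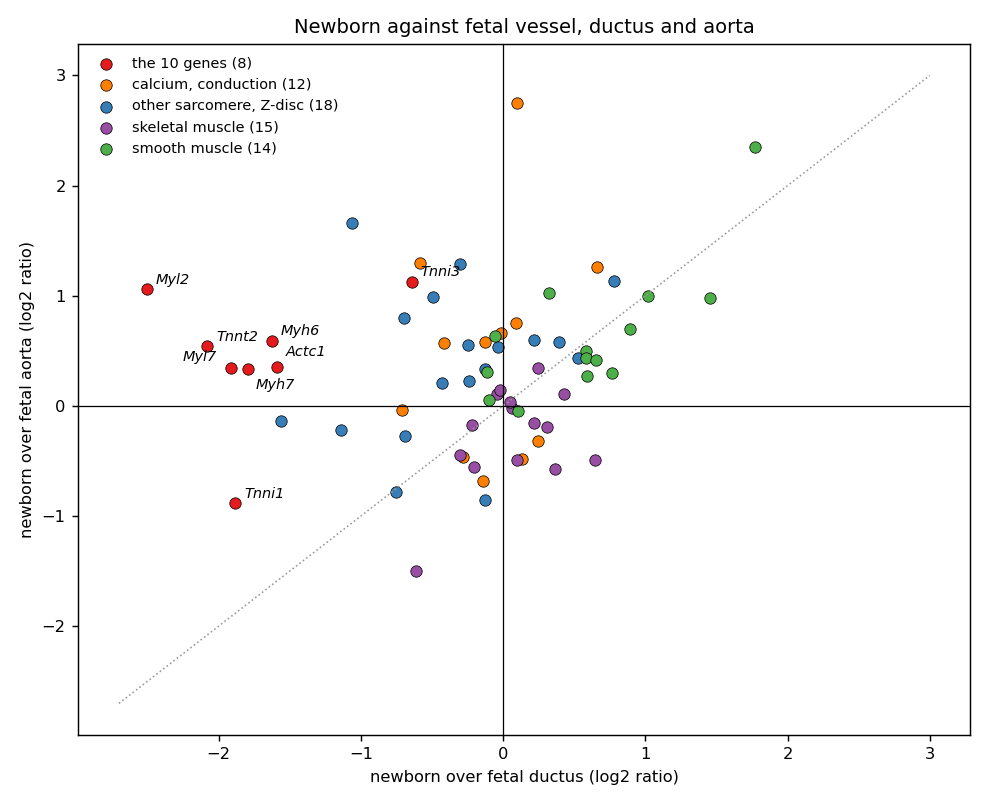
Log2 ratio of newborn over fetal ductus (x axis) against newborn over fetal aorta (y axis) for the 8 members measured in both vessels and for genes of 4 other muscle lists; 1 point per gene, with the number of genes in the legend and the dotted line at equal ratios. Of the 8 members, 7 lie at the upper left (lower in the newborn ductus, higher in the newborn aorta) and Tnni1 lies below 0 on both axes, while most smooth muscle genes lie in the upper right.

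Maternal oxygen was studied to set its effect on the fetal ductus beside that of birth. Among sarcomere genes, 0 of 9 were 2-fold apart between oxygen and fetal ductus at their brightest probe sets, with log2 ratios of -0.72 to 0.04 and a median of -0.36. Myl2 was 1.65-fold and Myh6 1.51-fold lower, Tnnt2 (log2 0.04) and Tnni3 (0.00) nearly equal. Away from the brightest, 1 Myl2 probe set was 2.12-fold and 1 Myh6 probe set 3.26-fold lower, with both arrays above the floor. The Myh6 probe set of chip B was 1.05-fold higher. Nppa alone was at least 2-fold higher, at 2.05-fold, where 0.483% of all genes reached this and 0.858% were at least 2-fold lower. It ranked 32 from the highest of 7457 genes. Its 4 probe sets gave 2.05-fold, 2.00-fold, 2.05-fold and 2.18-fold, all with both arrays above the floor. Nppa is on chip A alone, so all 4 come from the same 2 arrays. Scaling every array to the chip median, which moved the median of all genes by 0.17 on the log2 scale in this pair and by -0.14 between newborn and oxygen ductus, took the median of the 10 members to -0.06 against -0.32 as deposited, and turned Myl7 to 0.01 against -0.25. The median of all genes in this pair was 0.22 after this scaling and 0.04 as deposited, above that of the members both times.

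Newborn ductus against oxygen ductus shares the newborn arrays with newborn against fetal ductus, so the 2 comparisons are linked. All 10 members were lower and 9 at least 2-fold lower, where 3.24% of all genes were so low and 2.59% at least 2-fold higher. Away from the brightest, 1 Myh6 probe set was 1.22-fold higher in the newborn ductus. The members' median log2 ratio was -1.50. Tnnt2 was 4.33-fold, Myl2 3.44-fold, Myl7 3.15-fold, Tnni1 3.03-fold and Nppa 2.97-fold lower (1.82-fold to 3.55-fold over the Nppa probe sets). Myh6 (2.04-fold) lay at the threshold and was at log2 -0.97 after quantile normalization, and with all probe sets averaged Myh6 was at -0.41 and Myh7 at -0.67. With double the floor Tnni1 was at -0.78 and Myl3 at -0.39. Tnni3 was 1.56-fold lower.

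Members that are alternative forms of one protein were also read side by side, a choice made after their values were seen. Between newborn and fetal vessel the log2 ratio of Tnni3 exceeded that of Tnni1 by 1.24 in the ductus and by 2.01 in the aorta. In the ductus both were lower in the newborn, Tnni1 by more, and in the aorta they went opposite ways. For the heavy chains the same difference, Myh6 over Myh7, was 0.17 in the ductus and 0.26 in the aorta. The ventricular light chain Myl2 exceeded the atrial Myl7 by 1.84 in the ratio of fetal ductus to fetal aorta, and by 0.53 in that of newborn ductus to newborn aorta. The first of these rested on the brightest Myl2 probe set (log2 2.79). The other Myl2 probe set above the floor in both fetal vessels gave 1.18, against 0.95 for Myl7. With all probe sets averaged, Myl2 and Myl7 were at 2.11 and 0.91 in the fetal pair, and at -0.37 and -1.04 in the newborn pair.

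Other heart muscle genes were taken from lists of sarcomere and Z-disc, calcium handling and conduction, striated muscle energy supply, and transcription factors. Of 28 further sarcomere and Z-disc genes, 22 were on the chips and 19 above the floor somewhere. In the fetal ductus 2 of 18 measured were at least 2-fold higher than in the fetal aorta and 0 lower, with a median log2 ratio of 0.63. These were Ankrd1, a stress-responsive protein of the sarcomere (2.42-fold), and Smpx, a small protein of striated muscle (at least 2.27-fold). In the newborn against the fetal ductus 14 of 18 had lower signals and 3 were at least 2-fold lower, Ttn, the giant spring protein titin (2.95-fold), Actn2, the Z-disc alpha-actinin (log2 -1.14), and Smpx (2.09-fold), and the median was -0.27. In the newborn against the fetal aorta 14 of 19 had higher signals and 3 were at least 2-fold higher, Smpx (at least 3.17-fold), Ankrd1 (2.45-fold) and Pdlim5 (2.19-fold). Between newborn ductus and newborn aorta the list was divided, with 8 of 19 higher and 11 lower in the ductus, a median of -0.12, and Smpx (2.92-fold) and Ttn (2.00-fold) at least 2-fold lower. Smpx had 263, 640 and 548 in the newborn, oxygen and fetal ductus, and 765 and 86.7 in the newborn and fetal aorta. Tnnc1, the troponin C of heart and slow muscle, had a log2 ratio of -0.24 for newborn over fetal ductus, and Tpm1, a tropomyosin shared with smooth muscle, one of 0.53.

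The calcium and conduction genes had median log2 ratios of 0.47 between the fetal vessels, 0.58 between newborn and fetal aorta and -0.13 between newborn and fetal ductus. Of 13 measured, 4 had at least 2-fold more signal in the fetal ductus than the fetal aorta: Jph2, which joins the cell membrane to the calcium store (at least 5.64-fold), Popdc2 (3.47-fold), the calcium channel subunit Cacna2d1 (2.99-fold) and the calcium pump Atp2a2 (2.05-fold). In the newborn against the fetal aorta 8 of 13 had higher signals and 4 were at least 2-fold higher, Jph2 (at least 6.72-fold), Sln (at least 2.72-fold), Popdc2 (2.46-fold) and Gja1, the main connexin of heart and smooth muscle (2.40-fold). In the newborn against the fetal ductus 0 of 13 were 2-fold apart in either direction. Sln, sarcolipin, an inhibitor of that pump in the atria, was the list's one gene at least 2-fold higher in the oxygen than in the fetal ductus (at least 2.21-fold, 536 against 207, the fetal signal under the floor).

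Energy genes of striated muscle had a median log2 ratio of 0.30 between fetal ductus and fetal aorta (2 of 13 at least 2-fold higher, Fabp3 3.33-fold and Slc2a4 2.15-fold) and of -0.08 between newborn and fetal ductus (1 of 13 at least 2-fold lower, Fabp3 2.08-fold). Genes of mature striated muscle were found on both sides of the floor. Ckmt2, Mb and Eno3 were under it in all 5 states, as was Ryr2, the calcium release channel of heart muscle, while Ckm, the muscle creatine kinase (473 to 717), Cox6a2 (581 to 1144), Cox8b (150.2 to 253) and Pygm (305 to 440) were above it in all 5. Among heart transcription factors Gata4 was the one gene of 12 at least 2-fold higher in the fetal ductus than the fetal aorta (2.02-fold) and the one at least 2-fold lower in the newborn than the fetal ductus. Mef2c went the other way in the ductus, at least 2.30-fold higher in the newborn (556 against 123, the fetal signal under the floor). Gata4 had 177, 406 and 527 in the newborn, oxygen and fetal ductus, and 152 and 261 in the newborn and fetal aorta, a log2 ratio of -1.57 for newborn over fetal ductus. Nkx2-5 had 317, 265 and 282 in the newborn, oxygen and fetal ductus, and 261 and 349 in the newborn and fetal aorta, with no 2-fold difference in the 6 pairs. The list median was 0.20 between the fetal vessels and 0.17 between newborn and fetal ductus. Nppb, the ventricular natriuretic peptide gene that neighbours Nppa, was above the floor in the fetal ductus alone (192), and the receptor gene Npr1 had 670 to 997 in the 5 states. The natriuretic peptide list had 0 of 6 genes 2-fold apart between oxygen and fetal ductus, with a median of -0.20.

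Skeletal and smooth muscle were read as the other kinds of muscle. Skeletal muscle genes had a median log2 ratio of -0.42 between fetal ductus and fetal aorta, with 15 of 17 lower in the ductus and 0 2-fold apart, and of 0.06 between newborn and fetal ductus. Their summed signal was 9911, 8479 and 9792 in the newborn, oxygen and fetal ductus, and 10234 and 12964 in the newborn and fetal aorta. Myog and Myod1, the defining regulators of skeletal muscle, were under the floor in all 5 states. Of the 28 skeletal muscle genes on the chips, 17 were above the floor somewhere. Acta1 (1676 to 1836), Myh4 (1392 to 1982) and Myh3 (1276 to 3612) were above it in all 5. Myh3 was 2.83-fold lower in the newborn than in the fetal aorta. Smooth muscle genes were higher in the newborn than in the fetal ductus, with a median of 0.59 and 3 of 15 at least 2-fold higher (Des, Itga8 and Synpo2), and had medians of 0.68 and 0.83 for ductus over aorta in fetus and newborn. The members' summed signal was 7763, 20210 and 24956 in the newborn, oxygen and fetal ductus, and 13461 and 10080 in the newborn and fetal aorta. Erythroid (-0.93), leukocyte (-0.83) and nerve and chromaffin genes (-0.70) had medians below 0 for fetal ductus over fetal aorta, endothelial genes one of -0.13 and those of epithelium, airway and cartilage one of 0.17. Between newborn and fetal ductus the endothelial median was 0.61, with 12 of 12 genes higher, and that of epithelium, airway and cartilage was -0.34, with 8 of 11 lower. In that list 3 genes were at least 2-fold lower in the newborn ductus, the cartilage collagens Col9a1 (2.69-fold) and Col2a1 (at least 2.65-fold) and Msln, mesothelin of the mesothelium (2.12-fold). Acan, a further cartilage gene of the list, was level, with 262 in the newborn and 261 in the fetal ductus. Msln had 316, 732 and 669 in the newborn, oxygen and fetal ductus, and 1392 and 674 in the newborn and fetal aorta, so it too was lower after birth in the ductus and higher in the aorta (2.07-fold). The part of these differences in the ratios of the members was not tested. No marker of these lists tells heart muscle lying on a vessel from heart muscle genes used by the vessel wall, and which of these the signals came from cannot be told apart on these arrays.

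**Figure D4:**
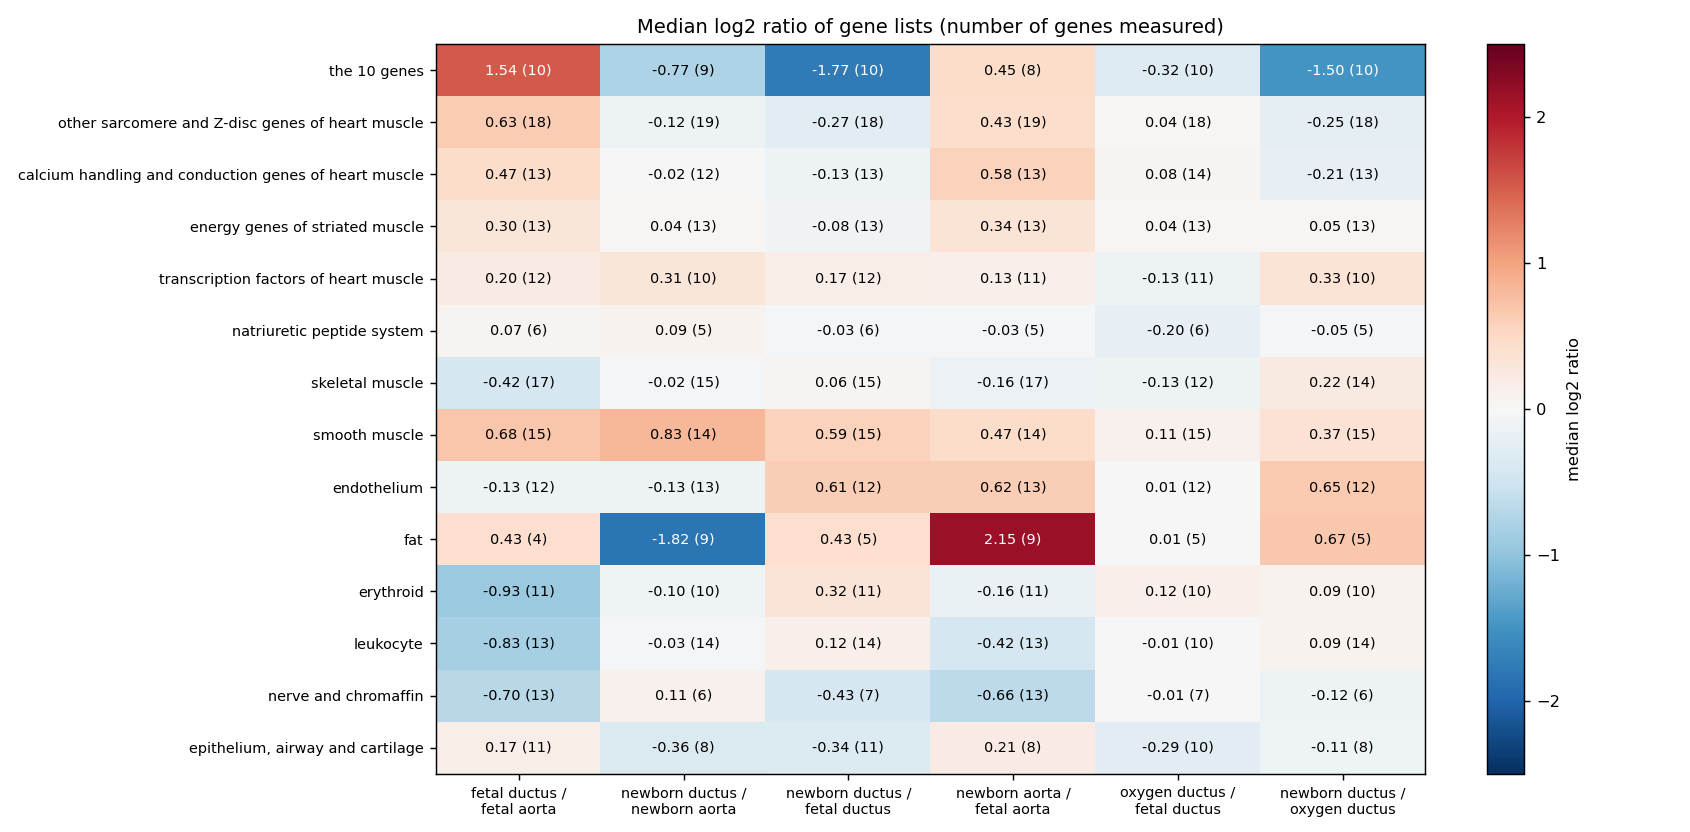
Median log2 ratio of the 10 genes and of 13 other gene lists in 6 pairs of states, the state before the slash over the one after it, with the number of genes measured in parentheses. The top line, the 10 genes, is at 1.54 for fetal ductus over fetal aorta and -1.77 for newborn over fetal ductus, where smooth muscle genes are at 0.68 and 0.59.

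The members were alike in profile over the 5 states, apart from 3 of them. Pearson's r of each with the mean of the 10 centred log2 profiles, which includes it, was 0.88 to 0.996 for Myl2, Myl3, Myl7, Myh6, Myh7, Tnnt2 and Actc1, 0.82 for Tnni1, 0.71 for Nppa and 0.59 for Tnni3. Outside the members, 1302 genes varied at least 2-fold over the states, and the 10 most like the mean profile (r of 0.90 to 0.99 over 5 points) were Col9a1, Lsp1, Gpr182, Urgcp, Gucy1b1, Tlk2, Ltbp4, Jag1, Cnmd and Fzd1. None of these 10 is in the heart lists. Col9a1, of the epithelium, airway and cartilage list, came first with 375, 1033 and 1011 in the newborn, oxygen and fetal ductus, and 466 and 356 in the newborn and fetal aorta. Cnmd, chondromodulin, also of cartilage, was above the floor in the oxygen ductus (306) and the fetal ductus (238) alone. Jag1, a Notch ligand, had 546, 1166 and 1025 in the newborn, oxygen and fetal ductus, and 550 and 667 in the newborn and fetal aorta. With 5 points a high r is easily reached, and 4 to 6 of these 10 genes were kept under each of the 5 alternative settings.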

How the data were processed

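The values are signal intensities deposited by the authors, on a linear scale, 1 array per state and chip type. MAS5 is named in the submitters' processing notes for the chip A arrays other than the fetal aorta, 4 of 5, and the software for chips B and C is not given in the sources used here. Without control probe sets (177), the mean after trimming 2% at each end was 495 to 498 on all arrays, which shows a common scaling by the time of deposit, and ratios are relative to that mean. The newborn aorta array of chip A has a title counting its 3 h from coitum and a description saying newborn, and was taken as newborn.

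Of 26202 probe sets, 18178 carried 1 gene symbol, 391 several and 7633 none in the platform annotation, and 18122 were found by gene number in RefSeq (GRCr8), with 0 symbols changed. Signals were floored at the pooled median of the chip, log2 ratios taken, and genes at least 2-fold apart counted among those above the floor on 1 of the 2 arrays. No test was made. The rule of counting was tried on simulated data with large changes in genes far above the floor. That trial says nothing about genes near the floor or near 2-fold. Calculations used Python 3.11.15, numpy 2.4.6 and pandas 2.3.3. Alternative settings tried were the floor, the scaling, the use of all probe sets and a 1.5-fold threshold.

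The members, the 13 other lists (heart sarcomere, calcium, energy, transcription factors, natriuretic peptides, skeletal and smooth muscle, endothelium, fat, erythroid, leukocyte, nerve, epithelium) and the motifs were chosen with earlier results of these data known, and some genes stand in 2 lists. All members are named at their brightest probe set. The rule for the other lists was the 2 to 4 genes with the largest ratio in the direction of the median, but not every such gene or gene past 2-fold is named, and those quoted for their level were picked with their values in view. The 10 genes most alike had the highest Pearson r with the mean profile of the members.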

Additional observations from a re-analysis of the deposited data

Results flagged for a closer look

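With birth, 3 members moved at least 1.5-fold in opposite directions in the 2 vessels, lower in the newborn than in the fetal ductus and higher in the newborn than in the fetal aorta. The birth log2 ratio in the ductus minus that in the aorta was -3.57 for Myl2, -2.22 for Myh6 and -1.77 for Tnni3. Of all 7278 genes measured in both vessels, 0.247% did so in these directions. With 1 array per state the difference was not tested. For Tnni3 both probe sets showed the 2 directions, with log2 ratios of -0.64 and -0.96 in the ductus and 1.13 and 1.44 in the aorta. For Myl2, the 2 probe sets above the floor in both aortas gave -2.51 and -1.21 in the ductus and 1.06 and 0.32 in the aorta, where Myl2 was at 0.46 with all probe sets averaged and 0.50 with double the floor, both under 1.5-fold. Myh6 was 1.51-fold higher in the newborn aorta at its brightest probe set, and its 4 other measured probe sets gave 1.59-fold, 1.37-fold, 1.26-fold and 1.22-fold, all of them lower in the newborn than in the fetal ductus.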

How the results depend on the processing

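Under 5 alternative settings (the floor times 0.5 and times 2, quantile normalization, scaling to the chip median, mean of all probe sets) none of the 155 values of member ratios past 2-fold reversed, and 142 of them stayed past 2-fold. A change of the floor cannot reverse a ratio, so only the other settings could have done so. The median of the members between fetal ductus and fetal aorta was 1.12 with double the floor and 1.07 with the mean of all probe sets, against 1.54. In the newborn against the fetal aorta 1 member was 2-fold apart under each of these 2 settings, against 2, and 4 were 1.5-fold apart, as were 18.5% of all genes. At the 1.5-fold threshold 7 members were apart between newborn ductus and newborn aorta, against 4 (12.1% of all genes at 1.5-fold), and 3 between oxygen and fetal ductus, against 1 (9.82% of all genes). The other 64 of 71 medians and counts moved by less than the robust standard deviation of all genes, or stayed within 1.5 times the count. Member ratios changed sign in 2 cases, both between oxygen and fetal ductus and both near 0 (Myl7 0.01 with chip median scaling, Tnni3 -0.18 with the mean of all probe sets). No paired analysis was possible because each state has 1 array per chip type and no test was made. Leaving out an array was not run, since it removes a state. Signals near the floor, above all Myl3, Nppa in the aorta and Tnni1 in the newborn ductus, limit what these ratios can show.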
